A study of Mus musculus with 21 samples.

Results

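Expression of 9 genes of the LIF and STAT3 pathway was measured by RNA sequencing in several states of mouse pluripotency. The genes were picked by name from 39396 in the deposited table: Lifr, Il6st and Osmr, which encode receptor chains, Stat3, which encodes the transcription factor, and Socs3, Bcl3, Pim1, Pim3 and Ly6g6e, genes that respond to the pathway or were listed with it. The cells were embryonic stem cells (mESCs) of the lines D3 and A2. All stages but the last named below were grown in medium with 10% serum and leukaemia inhibitory factor (LIF). Ground-state cells had LIF at 1000 U/mL together with 2i, in common usage a pair of inhibitors that act on MEK and on GSK3. Naive cells had gone 4 days without 2i, and their library names carry the LIF dose of 1000 U/mL. EPL cells, usually read as early primitive ectoderm-like cells, came from ground-state cells held for 4 days at 330 U/mL LIF with 400 uM L-proline and no listed 2i, so that naive and EPL cells are parallel arms from the ground state. Epiblast stem cells (EpiSCs), for A2 alone, were recovered after implantation of A2 cells in a pseudopregnant mouse and grown in a serum replacement with activin A and bFGF, a medium listed without LIF. The labels name no strain or engineered allele for either line, and do not say whether the EpiSCs are 1 clone.

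LIF binds a complex of the LIF receptor (Lifr) and gp130 (Il6st). The JAK kinases attached to the complex phosphorylate STAT3, which enters the nucleus and switches on targets that help keep mESCs from differentiating. Socs3 is such a target and shuts the receptor down again, so that its level is often read as an output of the pathway. EpiSCs depend on activin and FGF signalling rather than on LIF.

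Each of the 7 combinations of line and stage had 3 libraries, with 15320599 to 23490527 counts per library. Nothing in the labels makes the 3 separate cultures, and a p-value here speaks only of the scatter among these libraries, which may be technical. Levels are in CPM, counts scaled to a common library size with TMM factors, and differences are log2 values ± SE with adjusted p from edgeR's quasi-likelihood test over 16575 genes, called at an adjusted p below 0.05. A pair of libraries stood apart from the others of their group, D3 naive replicate 2 and A2 EpiSC replicate 3, and a printed difference whose call changed without one of them, or which was called and moved by over 1.5 times, is given both ways. The summed level of 3 pluripotency genes (Pou5f1, Sox2 and Sall4) was 747.8 to 964.5 CPM in EpiSC libraries and 1628 to 2381 CPM in all others. That of 6 mESC markers (Zfp42, Esrrb, Klf4, Tbx3, Nr0b1 and Tfcp2l1) was 806.1 to 1001 CPM, against 1048 to 5407 CPM. Against A2 EPL cells 4 of the 6 were lower in EpiSCs and 2 higher, where 31.2% and 39.0% of all genes were. For 6 EpiSC markers (T, Fgf5, Lefty1, Cer1, Foxa2 and Eomes) the sum was 604.7 to 850.2 CPM, against 23.7 to 224.9 CPM. Of these, Lefty1 alone averaged 718.6 CPM in EpiSCs. The EpiSC libraries also carried all 10 fibroblast markers examined, at sums of 2478, 2307 and 3047 CPM, against 5.52 to 13.2 CPM in the other 18 libraries, and markers of primitive endoderm at 125.5 to 178.8 CPM, against 3.39 to 37.3 CPM. The sum of 5 macrophage markers was 17.4 to 19.5 CPM in EpiSC libraries, within the 9.98 to 34.4 CPM of the others. Of these, Lyz2 was at 8.33 to 9.84 CPM, against at most 0.0544 CPM elsewhere, and Adgre1 at 0.709 to 0.86 CPM, against 0 elsewhere. Cd68 went the other way, at 7.12 to 8.42 CPM in EpiSC libraries, against 9.93 to 34.3 CPM elsewhere. Ptprc and Csf1r reached at most 0.43 and 0.704 CPM in EpiSC libraries, against 0.162 and 0.195 CPM elsewhere. No fibroblast or primitive endoderm marker was at 0 in all of the other libraries, although up to 3 of the fibroblast markers were at 0 within a group, and the part of such cells in the members' differences was not tested. In these bulk samples fewer cells of a type and less RNA per cell cannot be told apart.

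STAT proteins bind palindromes of the form TTCNNNGAA, and STAT3 favours TTCCNGGAA. Promoter windows of 250 bases before the annotated start (RefSeq, GRCm38.p6) were available for 8 of the 9 genes, as 10 windows. They are shown for Socs3 and Bcl3, the members whose levels differed most steeply between EPL and naive cells in counts that allow it, and for Pim3, which by the same limit on counts was the member higher in naive than in ground-state cells by the most. Osmr had larger differences in both comparisons on at most 9 counts per library. Each reads from 5′ to 3′ on the gene's own strand, and capitals mark the match to TTCNNNGAA.
Socs3, minus strand, chr11:117969367-117969616: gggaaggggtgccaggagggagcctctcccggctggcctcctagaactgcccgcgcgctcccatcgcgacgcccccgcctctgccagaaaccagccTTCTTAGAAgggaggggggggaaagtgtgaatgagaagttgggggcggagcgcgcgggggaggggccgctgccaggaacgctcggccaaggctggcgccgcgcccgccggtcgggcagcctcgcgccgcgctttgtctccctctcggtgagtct
Bcl3, minus strand, chr7:19822756-19823005: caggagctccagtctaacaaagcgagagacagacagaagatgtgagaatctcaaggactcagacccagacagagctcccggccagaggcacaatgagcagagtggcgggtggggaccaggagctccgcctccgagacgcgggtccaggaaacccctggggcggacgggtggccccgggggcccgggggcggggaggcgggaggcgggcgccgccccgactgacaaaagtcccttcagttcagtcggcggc
Pim3, plus strand, chr15:88861944-88862193: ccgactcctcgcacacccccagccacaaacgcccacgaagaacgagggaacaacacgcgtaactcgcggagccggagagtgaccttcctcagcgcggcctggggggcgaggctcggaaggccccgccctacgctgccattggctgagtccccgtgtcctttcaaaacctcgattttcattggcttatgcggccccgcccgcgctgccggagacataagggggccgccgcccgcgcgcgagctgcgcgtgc

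The window of Socs3 was the only one of the 10 with TTCNNNGAA, as TTCTTAGAA from 154 to 146 bases before the start, and none held TTCCNGGAA. Both motifs are the same on either strand, and any TTCCNGGAA would also count as TTCNNNGAA. Among all 32851 promoter windows of this length in the same table, 7.02% held TTCNNNGAA and 0.913% held TTCCNGGAA. The RefSeq start of Socs3 lies 180 bases upstream of the start of its protein-coding transcript in GENCODE M21, so the window leaves out the bases next to that second start. A match is a run of letters and was not tested as a binding site.

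Per length of exon, Pim3, a kinase, and Socs3, a feedback inhibitor, led in every group, and Osmr, the oncostatin M receptor chain, came last. Pim3 averaged 47.4, 101.8 and 63.4 CPM per kb in D3 ground, naive and EPL cells, and 48.9, 94.6, 72.8 and 35.3 CPM per kb in A2 ground, naive, EPL and EpiSC cells. Socs3 averaged 40.3, 53.0 and 24.3 CPM per kb in the D3 stages and 50.5, 62.8, 30.8 and 21.4 CPM per kb in those of A2. Their libraries overlapped in the ground state of both lines, with Socs3 the higher mean in A2, and stood apart elsewhere with Pim3 on top. Bcl3, Pim1 and Stat3 followed in the middle, then Il6st, Lifr and Ly6g6e. Ly6g6e ranked above both LIF receptor chains in ground-state cells, at 15.1 CPM per kb in D3 and 16.1 CPM per kb in A2, and below both in D3 naive, in EPL and in EpiSC cells. In A2 naive cells its libraries overlapped with those of Il6st, and in A2 EPL cells with those of Lifr. With the longest transcript in place of all exons, Ly6g6e rather than Osmr was last in EpiSCs, where the libraries of both overlapped.

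**Figure D1:**
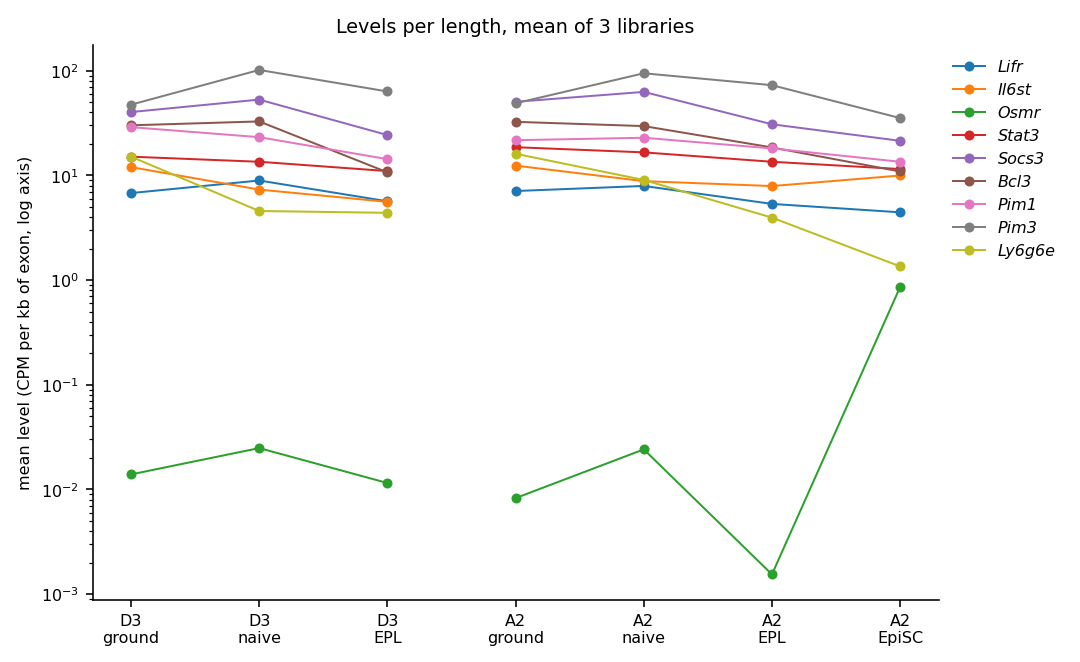
Mean level per kb of exon of the 9 genes (log axis, CPM per kb, n = 3 libraries per point) in 3 D3 and 4 A2 groups, lines joining the stages of a line. Pim3 and Socs3 lead in every group, Osmr lies far below the rest except in EpiSCs, where it reached 0.86 CPM per kb beside 1.35 for Ly6g6e.

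Between the 2 arms without 2i, all 9 genes were lower in EPL than in naive cells (mean of both lines), where 51.1% of all tested genes were called and 24.1% were called lower. The median log2 difference of the 9 was -0.62, against 0.01 for all tested genes. The steepest differences in well-counted genes were those of Bcl3, which fell by 1.14 ± 0.06 (adjusted p = 3.3e-13), and Socs3, which fell by 1.08 ± 0.09 (adjusted p = 1.36e-09). Stat3 and Il6st had the smallest differences, -0.29 ± 0.05 and -0.27 ± 0.08. By line, 7 members were called lower in D3, where 44.8% of all genes were called, and 8 in A2, where 32.8% were. Osmr and Ly6g6e were not called in D3, and Il6st was not called in A2. The level of Osmr rested on at most 9 counts per library, and it was tested only because the EpiSC libraries passed it through the filter on low counts. With the naive and EPL groups fitted alone it was not tested, and 8 members were called. EPL medium had both less LIF and added proline, so their parts in these differences cannot be told apart.

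Naive cells set against ground-state cells, at the same LIF dose, gave a split. Socs3, Lifr, Pim3 and Osmr were higher, Stat3, Il6st and Ly6g6e were lower, and Bcl3 and Pim1 were not called, where 63.4% of all genes were called, 31.6% higher and 31.8% lower. The median of the 9 was -0.01, against 0.01 for all genes. EPL cells set against ground-state cells had 1 member higher, Pim3, and 7 lower, with Osmr not called (66.1% of all genes were called, 33.1% in each direction). The median of the 9 was -0.72, against 0.0 for all genes. In the lines alone, naive against ground had 3 members higher and 3 lower in D3, where 53.4% of all genes were called. In A2 it had 2 higher and 2 lower, where 51.0% were called. EPL against ground had 1 higher and 6 lower in D3 (57.7% of all genes called). In A2 it had 1 higher and 7 lower (54.6%). These comparisons share libraries: the naive ones stand on the top of one difference and on the bottom of the other, so a high naive value pushes them to opposite signs.

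EpiSCs, set against EPL cells of A2, had Osmr and Il6st higher, 6 members lower and Lifr not called, where 70.2% of all genes were called, 39.0% higher and 31.2% lower. The median of the 9 was -0.42, against 0.07 for all genes. The count against naive cells was 1 higher and 7 lower with Il6st not called (70.2% of all genes called, 39.0% higher and 31.1% lower). Against ground-state cells it was 1 higher and 8 lower (73.1% of all genes called, 39.1% higher and 34.0% lower). Osmr passed the filter on low counts only through the EpiSC libraries, so a difference from the rest was built into its being tested. It was the member that was higher in all 3 of these comparisons, which share those libraries. Of the called genes of the first, 55.5% were higher, and 68.7% with scaling to the total count, which moved the median of all genes to 0.27, against 0.07 with TMM; against naive cells the shares were 55.6% and 67.1%, and against ground-state cells 53.5% and 69.4%.

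**Figure D2:**
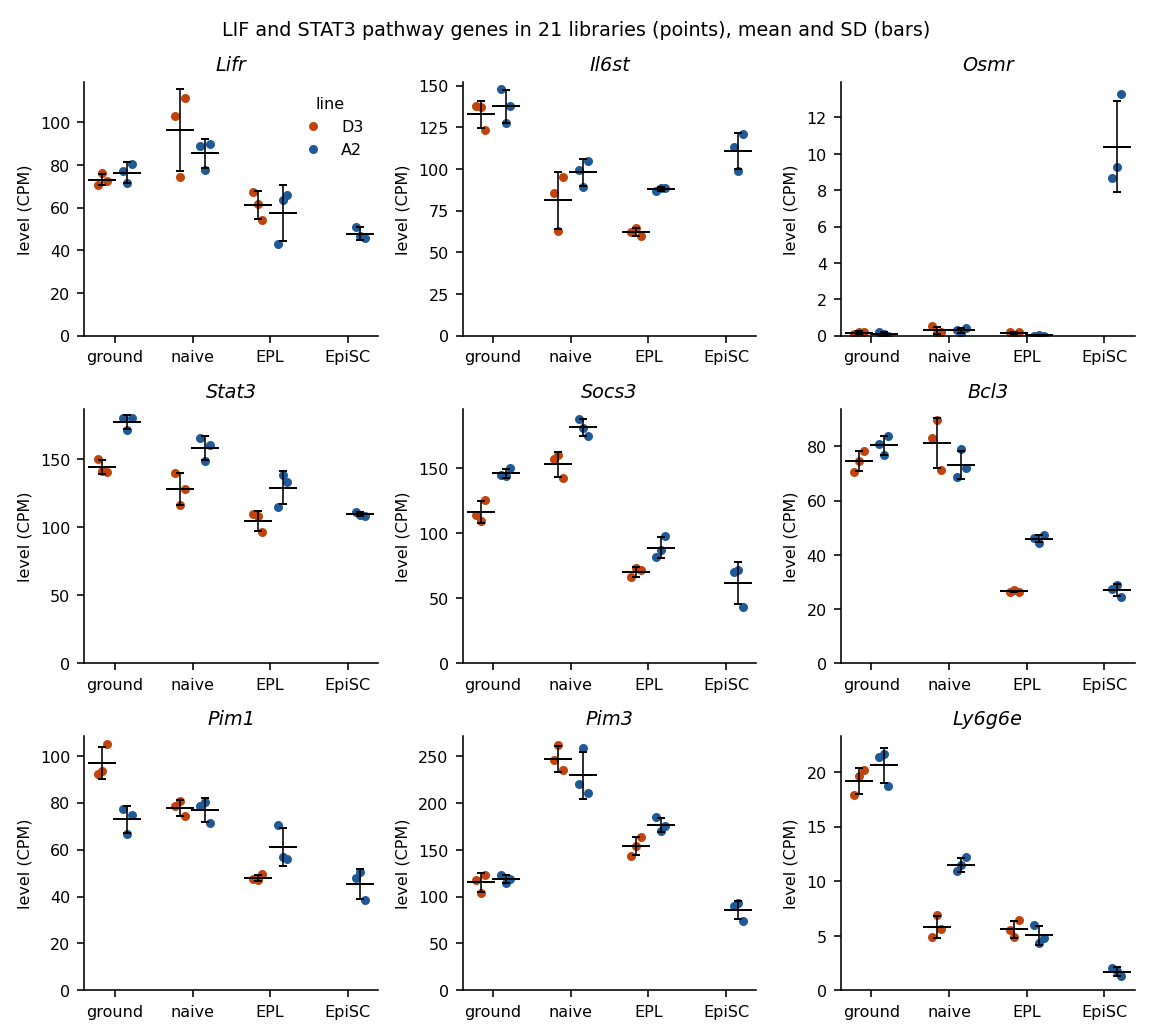
Level (CPM) of each gene in each of 21 libraries, by stage, D3 in red to the left of A2 in blue. Horizontal bars are the mean and capped bars the SD of 3 libraries. Bcl3 and Socs3 drop in EPL cells of both lines, Pim3 peaks in naive cells, and Osmr is close to 0 except in EpiSCs.

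Lifr (GRCm38 chromosome 15, 7090614 to 7197489), the ligand-binding chain, was highest in naive cells. In D3 it stood at 70.7, 76.0 and 72.5 CPM in ground, 102.8, 74.5 and 111.5 CPM in naive and 67.2, 61.7 and 54.1 CPM in EPL libraries. In A2 the values were 77.2, 71.4 and 80.6 CPM in ground, 88.8, 77.8 and 89.7 CPM in naive, 43.0, 63.7 and 65.8 CPM in EPL and 51.1, 46.8 and 45.6 CPM in EpiSC libraries. EPL lay below naive in every library of each line, whereas naive and ground libraries overlapped in both, D3 naive replicate 2 being the low one in D3. The gene fell by 0.62 ± 0.10 in EPL against naive cells (adjusted p = 2.03e-05) and rose by 0.28 ± 0.10 in naive against ground-state cells (adjusted p = 0.015), and by 0.36 without D3 naive replicate 2, which also moved the first difference to -0.69. By line the rise was called in D3 (0.40 ± 0.14) and not in A2 (0.16 ± 0.14), and the test of that difference did not pass (adjusted p = 0.617). EpiSCs against EPL cells gave -0.27 ± 0.14 (adjusted p = 0.0904), and -0.44 (adjusted p = 0.00276) without A2 EPL replicate 1, the lowest of its group. The edgeR fit without a filter on low counts also called it (-0.28, adjusted p = 0.00733).

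Il6st (chromosome 13, 112464070 to 112510086), the gp130 chain shared by the whole cytokine family, was highest in the ground state. Its D3 values were 137.8, 136.9 and 123.3 CPM in ground, 85.8, 62.9 and 95.0 CPM in naive and 62.2, 64.3 and 59.7 CPM in EPL libraries. The A2 values were 147.9, 127.4 and 137.6 CPM in ground, 99.6, 89.3 and 104.9 CPM in naive, 86.5, 88.3 and 88.7 CPM in EPL and 112.9, 98.5 and 120.9 CPM in EpiSC libraries. Naive lay below ground in every library, and EpiSC above EPL. Il6st fell by 0.60 ± 0.07 in naive against ground-state cells (adjusted p = 2.5e-07) and by 0.27 ± 0.08 in EPL against naive cells (adjusted p = 0.0045). The second difference was called in D3 (-0.39 ± 0.11) and not in A2 (-0.16 ± 0.11, adjusted p = 0.279), and the test of that difference did not pass (adjusted p = 0.354), except without D3 naive replicate 2 (-0.39, adjusted p = 0.0319). Without D3 naive replicate 2, the 2 differences were -0.52 and -0.35. It rose by 0.33 ± 0.11 in EpiSCs against EPL cells (adjusted p = 0.00747), a call lost without A2 EpiSC replicate 3 (0.25, adjusted p = 0.0575). EpiSCs against ground-state cells gave -0.31 ± 0.10 (adjusted p = 0.0102), a call lost with scaling to the total count (-0.05) and without A2 ground replicate 1 (-0.24) or A2 EpiSC replicate 2 (-0.25).

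The balance of the pair moved with the stage. Il6st per Lifr, both per length, was 1.76 ± 0.12 in D3 ground, 0.819 ± 0.0084 in D3 naive and 0.994 ± 0.088 in D3 EPL cells (SD, n = 3 each). In A2 it was 1.75 ± 0.10 in ground, 1.11 ± 0.023 in naive, 1.54 ± 0.36 in EPL and 2.26 ± 0.28 in EpiSC cells. The ratios of D3 naive replicate 2 (0.819) and its 2 mates (0.81 and 0.827) lay close together, although that library was low for each chain alone. In both lines every naive ratio lay below every ground ratio. These ratios are a description and were not tested.

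Osmr (chromosome 15, 6813577 to 6874969), which pairs with gp130 to bind oncostatin M, was nearly silent in mESC and EPL cells. In D3 it had 2, 4 and 4 counts in ground, 9, 3 and 4 in naive and 3, 1 and 4 in EPL libraries. In A2 it had 4, 2 and 0 counts in ground, 5, 3 and 9 in naive and 0, 1 and 0 in EPL libraries, so that 3 of the 18 libraries were at 0 and the highest held 9. EpiSC libraries held 189, 237 and 319 counts, or 8.68, 9.27 and 13.3 CPM. Osmr passed the filter on low counts only through these, so a difference from the rest was built into its being tested. The ratio of EpiSC to EPL levels was 537 (95% Poisson interval 96.1 to 21200, from 745 counts against 1), that to naive cells 35.8 (22.2 to 61.8), and that to ground-state cells had an interval of 45.9 to 274. These intervals cover counting error only. The fibroblast marker sum was raised in the same 3 libraries and was highest, 3047 CPM, in the library with the most Osmr, and lowest, 2307 CPM, in the one with 9.27 CPM; its part in the Osmr level was not tested. Among the stages other than EpiSC, Osmr was called lower in EPL than in naive cells (-2.30 ± 0.62, adjusted p = 0.00341) and higher in naive than in ground-state cells (1.12 ± 0.48, adjusted p = 0.0445), on these few counts. The first was called in A2 (-3.53) and not in D3 (-1.07, adjusted p = 0.208), and was -3.31 without A2 EPL replicate 2, the A2 EPL library with the group's only count. Its libraries overlapped in at least 1 line in each case, and leaving out any of 7 libraries ended the second call (0.84 to 1.18 in those fits).

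**Figure D3:**
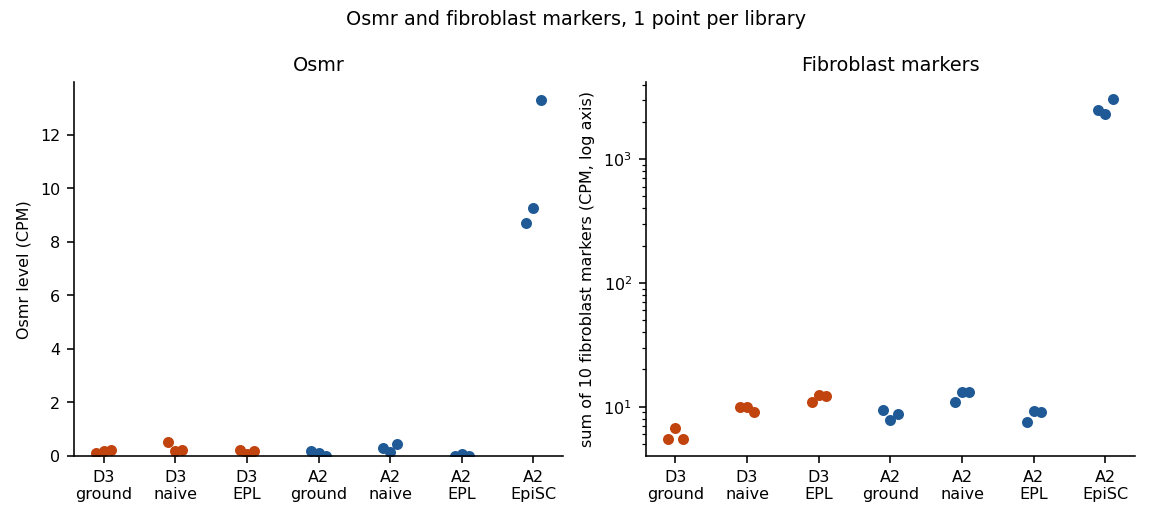
Osmr level (left, CPM) and the sum of 10 fibroblast markers (right, CPM, log axis) in each library, D3 groups in red, then A2 groups in blue. Both are far higher in the 3 EpiSC libraries, at 8.68 to 13.3 CPM for Osmr and 2307 to 3047 CPM for the markers.

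Stat3 (chromosome 11, 100885098 to 100939540), the transcription factor at the centre of the pathway, was highest in ground-state cells and lower by small amounts in naive and then EPL and EpiSC cells. D3 libraries had 150.0, 141.7 and 140.7 CPM in ground, 140.1, 116.7 and 128.0 CPM in naive and 110.0, 108.3 and 96.2 CPM in EPL cells. A2 libraries had 180.5, 171.4 and 180.5 CPM in ground, 165.4, 148.7 and 160.8 CPM in naive, 115.2, 138.4 and 133.6 CPM in EPL and 111.5, 109.2 and 108.5 CPM in EpiSC cells. The stages did not overlap within a line. Stat3 fell by 0.29 ± 0.05 in EPL against naive cells (adjusted p = 8.02e-05) and by 0.17 ± 0.05 in naive against ground-state cells (adjusted p = 0.00883). The second difference was called in neither line alone (-0.17 in each, adjusted p = 0.0647 in D3 and 0.0709 in A2), and its call over both lines was lost with scaling to the total count (-0.10, adjusted p = 0.106) and without D3 ground replicate 1 (-0.13). EpiSCs against EPL cells gave -0.23 ± 0.08 (adjusted p = 0.00848), against -0.03 with scaling to the total count (adjusted p = 0.753) and -0.18 without A2 EPL replicate 2 (adjusted p = 0.0555). The gene shares 72 bases of exon, 0.76% of its exons, with Stat5a on the other strand.

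Socs3 (chromosome 11, 117966079 to 117970047), the feedback inhibitor whose promoter window is printed above, moved more than Stat3 itself. In D3 it stood at 114.3, 109.3 and 125.9 CPM in ground, 157.5, 160.0 and 142.2 CPM in naive and 66.3, 73.1 and 71.3 CPM in EPL libraries. In A2 it stood at 144.6, 143.9 and 149.9 CPM in ground, 188.4, 181.3 and 175.3 CPM in naive, 81.8, 87.1 and 97.9 CPM in EPL and 70.3, 72.0 and 43.3 CPM in EpiSC libraries. No stage overlapped another within a line, naive being the highest. EPL against naive gave -1.12 ± 0.12 in D3 and -1.03 ± 0.12 in A2, and naive against ground gave 0.40 ± 0.12 in D3 and 0.31 ± 0.12 in A2. The tests of a difference between lines gave adjusted p = 0.787 and 0.871. EpiSCs against EPL cells gave -0.52 ± 0.12 (adjusted p = 0.000691), and -0.34 without A2 EpiSC replicate 3, the lowest library.

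Socs3 per Stat3, per length, was 2.67 ± 0.24 in D3 ground, 3.96 ± 0.48 in D3 naive and 2.22 ± 0.23 in D3 EPL cells. In A2 it was 2.71 ± 0.066 in ground, 3.79 ± 0.21 in naive, 2.28 ± 0.18 in EPL and 1.85 ± 0.47 in EpiSC cells (SD, n = 3 each). The naive ratios of both lines, 3.59 to 4.52, lay above all ratios of the other groups, whose highest was 2.95. This too is a description without a test.

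Bcl3 (chromosome 7, 19808462 to 19822770), an atypical IkappaB protein that acts with NF-kappaB p50 and p52 in the nucleus, separated the lines at the EPL stage. D3 libraries had 70.6, 74.8 and 78.3 CPM in ground, 83.0, 89.6 and 71.2 CPM in naive and 26.4, 26.8 and 26.4 CPM in EPL cells. A2 libraries had 80.8, 76.9 and 83.8 CPM in ground, 68.7, 78.9 and 72.2 CPM in naive, 46.2, 44.4 and 47.1 CPM in EPL and 27.5, 28.9 and 24.5 CPM in EpiSC cells. Ground and naive libraries overlapped in both lines, and D3 EPL libraries lay below A2 EPL libraries, near the level of A2 EpiSCs. EPL against naive gave -1.61 ± 0.08 in D3 and -0.68 ± 0.08 in A2, and the difference between the lines, -0.94 ± 0.12, passed its own test (adjusted p = 1.31e-05), where 12.8% of all genes were called. Naive against ground gave -0.01 ± 0.06, which was not called (adjusted p = 0.942). Antisense Gm16175 shares 161 bases, 6.51% of the exons of Bcl3, and had 1 to 9 counts per library.

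**Figure D4:**
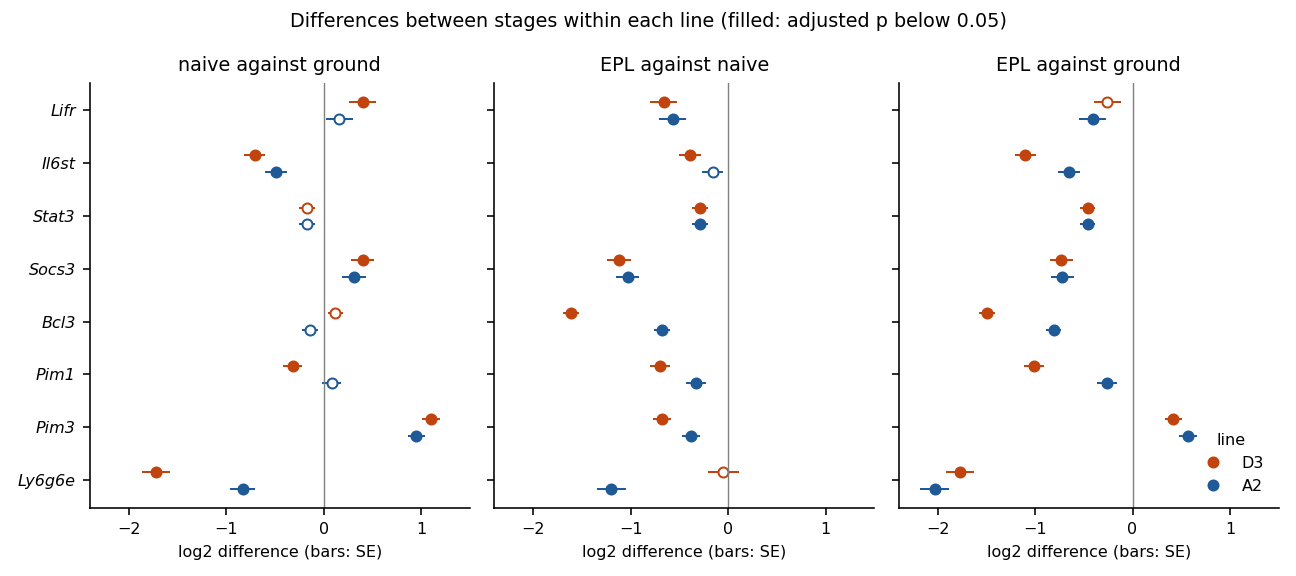
Log2 difference with SE in each comparison for the 8 genes other than Osmr, D3 in red above A2 in blue, filled where adjusted p was below 0.05. Bcl3 and Ly6g6e are the genes called for a difference between lines in EPL against naive (Bcl3 -1.61 in D3 and -0.68 in A2, Ly6g6e -0.05 in D3 and -1.20 in A2).

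Pim1 (chromosome 17, 29490753 to 29496112) and Pim3 (chromosome 15, 88862186 to 88865726) encode related serine/threonine kinases that favour survival and growth, and differed in their course. Pim1 ran in D3 at 92.4, 93.7 and 104.9 CPM in ground, 78.8, 80.6 and 74.2 CPM in naive and 47.6, 47.0 and 49.4 CPM in EPL libraries. In A2 it ran at 77.2, 66.5 and 74.9 CPM in ground, 78.8, 80.5 and 71.2 CPM in naive, 70.4, 56.7 and 55.9 CPM in EPL and 47.8, 50.4 and 38.3 CPM in EpiSC libraries. In D3 ground lay above naive and naive above EPL without overlap, while A2 ground and naive libraries overlapped. Pim1 fell by 0.51 ± 0.07 in EPL against naive cells (adjusted p = 1.49e-06) and was not called in naive against ground-state cells (-0.12 ± 0.07, adjusted p = 0.125; -0.32 ± 0.10 and called in D3, 0.08 ± 0.10 and not called in A2). The difference between lines in that comparison did not pass (-0.39 ± 0.14, adjusted p = 0.136). Antisense Gm26885 shares 488 bases, 14.5% of the exons of Pim1, with 0 to 6 counts per library.

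Pim3 had 117.6, 104.2 and 123.5 CPM in D3 ground, 245.4, 261.5 and 234.6 CPM in D3 naive and 143.6, 153.9 and 164.1 CPM in D3 EPL libraries. It had 122.9, 114.0 and 119.2 CPM in A2 ground, 220.1, 258.2 and 210.6 CPM in A2 naive, 184.9, 170.2 and 175.0 CPM in A2 EPL and 90.4, 92.7 and 73.7 CPM in EpiSC libraries. Each stage stood apart from the others in both lines, with EPL between ground and naive. Pim3 rose by 1.03 ± 0.06 in naive against ground-state cells, a 2.04-fold difference (adjusted p = 9.25e-13), fell by 0.53 ± 0.06 in EPL against naive cells (adjusted p = 2.17e-07) and was 1.41-fold higher in EPL than in ground-state cells (0.50 ± 0.06, adjusted p = 2.14e-07). Pim3 per Pim1, per length, was 1.64 ± 0.11 in D3 ground, 4.40 ± 0.092 in D3 naive and 4.44 ± 0.23 in D3 EPL cells, and 2.26 ± 0.099, 4.14 ± 0.29, 4.04 ± 0.36 and 2.61 ± 0.061 in A2 ground, naive, EPL and EpiSC cells (SD, n = 3 each). EPL libraries thus held a ratio of the naive kind while both kinases were lower.

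Ly6g6e (chromosome 17, 35076902 to 35078804) is of the Ly6 family of surface proteins. It had the steepest differences of the 9 from the ground state over both lines and in EpiSCs, Osmr aside. In A2 naive cells alone Pim3 differed by more (0.95 ± 0.09). In D3 it had 17.9, 19.6 and 20.2 CPM in ground, 4.92, 6.93 and 5.59 CPM in naive and 5.51, 4.85 and 6.42 CPM in EPL libraries. In A2 it had 21.4, 21.6 and 18.7 CPM in ground, 10.9, 11.5 and 12.2 CPM in naive, 5.96, 4.30 and 4.83 CPM in EPL and 2.07, 1.80 and 1.29 CPM in EpiSC libraries. The A2 stages did not overlap, while in D3 the naive and EPL libraries did. Naive against ground gave -1.72 ± 0.14 in D3 and -0.83 ± 0.13 in A2, a difference between lines of -0.89 ± 0.19 (adjusted p = 0.0103, where 3.13% of all genes were called). EPL against naive gave -0.05 ± 0.16 in D3, not called, and -1.20 ± 0.15 in A2, a difference of 1.15 ± 0.22 (adjusted p = 0.00104). EPL against ground gave -1.77 ± 0.14 in D3 and -2.03 ± 0.15 in A2. The D3 naive libraries stand on the top of one difference and the bottom of the next, so the 2 calls of line dependence rest on the same values. Without D3 naive replicate 2 they were 1.29 for EPL against naive and -1.03 for naive against ground. Ly6g6d on the other strand shares 229 bases, 18% of the exons of Ly6g6e, at 11 to 61 counts per library, and the library kit does not mark strand.

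Averaged over the ground, naive and EPL stages, D3 against A2 had 5 of 9 members lower (Socs3, Bcl3, Stat3, Il6st and Ly6g6e) and none higher. Of all genes 40.6% were called and 20.7% were called lower. Stage by stage, D3 had 1 member lower and 1 higher in the ground state (20.0% of all genes called), 2 lower in naive cells (30.0%) and 5 lower in EPL cells (29.3%). Bcl3 gave -0.11 ± 0.08 in ground and 0.15 ± 0.08 in naive cells, both not called, and -0.79 ± 0.08 in EPL cells, and Ly6g6e was called in naive cells only (-0.99 ± 0.15, with -0.10 ± 0.13 in ground and 0.16 ± 0.16 in EPL cells). Stat3 was lower in D3 at each of them (-0.30 ± 0.08 in ground, naive and EPL cells alike), and the libraries of the lines did not overlap. Il6st gave -0.05 ± 0.10 in the ground state, -0.27 ± 0.11 in naive and -0.50 ± 0.11 in EPL cells, of which the last was called (adjusted p = 0.00103). Pim1 was higher in D3 in the ground state (0.41 ± 0.10, adjusted p = 0.00294) and lower in EPL cells (-0.35 ± 0.10, adjusted p = 0.00991). EPL against naive depended on the line, by a called test, for Bcl3 and Ly6g6e among the 9 (12.8% of all genes called). Naive against ground did so for Ly6g6e (3.13%). Pim1 in EPL against naive gave -0.70 ± 0.10 in D3 and -0.33 ± 0.10 in A2. Pim3 gave -0.68 ± 0.09 and -0.38 ± 0.09. Their line tests were not called (adjusted p = 0.0861 and 0.113). Pim1 was called without a filter on low counts (adjusted p = 0.0374), and Pim3 without A2 naive replicate 2 (adjusted p = 0.0279).

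Other genes of the pathway were read from lists of ligands, receptors, kinases, inhibitors, adaptors and targets. Their counts stand beside the shares over all tested genes: 31.6% higher and 31.8% lower in naive against ground-state cells, 27.0% higher and 24.1% lower in EPL against naive cells, and 39.0% higher and 31.2% lower in EpiSCs against EPL cells. The median log2 differences of all tested genes were 0.01, 0.01 and 0.07 in that order. Of 7 tested ligands of the IL-6 family, 4 were higher and 2 lower in naive against ground-state cells, 2 higher and 1 lower in EPL against naive cells, and 4 higher and none lower in EpiSCs against EPL cells. Osm, which encodes oncostatin M, fell by 3.87 ± 0.11 in naive against ground-state cells (adjusted p = 1.33e-18), with 0.913 ± 0.15 CPM in D3 naive against 14.1 ± 1.2 CPM in D3 ground and 1.03 ± 0.10 CPM in A2 naive against 14.4 ± 1.1 CPM in A2 ground cells. Lif itself was expressed, at 5.34 ± 0.42 CPM in D3 naive against 8.86 ± 1.2 CPM in D3 ground cells and 7.86 ± 0.45 CPM in A2 naive against 11.5 ± 0.76 CPM in A2 ground cells (-0.64 ± 0.13, adjusted p = 0.000124). In EpiSCs it reached 21.4 to 40.4 CPM, against 4.47 to 4.96 CPM in A2 EPL cells (2.62 ± 0.18, adjusted p = 8.88e-12), in libraries with the fibroblast markers given above.

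Of the other receptor chains, 4 of 5 were tested, and in naive against ground-state cells 3 were higher and 1 lower. Il6ra, which makes a cell responsive to IL-6, fell by 3.92 ± 0.15 in naive against ground-state cells (adjusted p = 2.55e-16), to 1.45 ± 0.071 CPM in D3 naive, against 26.8 ± 1.1 CPM in D3 ground cells. Cntfr, the ciliary neurotrophic factor receptor that joins Lifr and gp130, rose by 4.58 ± 0.16 as the mean of both lines (adjusted p = 3.39e-17). It had 24.8 ± 5.8 CPM in D3 naive, against 0.425 ± 0.088 CPM in D3 ground cells. In A2 the rise was smaller, to 16.6 ± 1.6 CPM in naive, against 1.67 ± 0.43 CPM in ground cells. In EPL against naive cells Cntfr fell by 0.67 ± 0.11, and 3 of the 4 chains were lower and 1 higher. Cntfr had 11.9 ± 1.7 CPM in D3 EPL and 13.7 ± 2.6 CPM in A2 EPL cells, whose libraries overlapped with A2 naive ones. Of the 4 chains, 1 was called for line dependence in naive against ground (3.13% of all genes called). In EPL against naive it was also 1 (12.8% of all genes called). All 4 were higher in EpiSCs against EPL cells.

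Of 10 JAK kinases and other STATs, 6 were lower, 1 higher and 3 not called in EPL against naive cells (median -0.29). Jak1, a kinase bound to gp130, fell by 0.34 ± 0.06, and Stat2, a mediator of interferon signals, rose by 0.79 ± 0.08. In naive against ground-state cells 4 were lower and 3 higher, with Jak2 at -1.39 ± 0.12 (adjusted p = 5.89e-10) and Stat2 at -1.25 ± 0.08. EpiSCs against EPL cells had 5 higher and 2 lower (6 and 1 with scaling to the total count), with Jak2 at 3.03 ± 0.17. Of 14 negative regulators other than Socs3, 5 were higher, 1 lower and 8 not called in EPL against naive cells (median 0.07). In naive against ground-state cells 6 were higher and 6 lower, and in EpiSCs against EPL cells 4 higher and 7 lower (6 and 6 with scaling to the total count). Socs2, which restrains growth hormone signals, rose by 1.04 ± 0.07 in naive against ground-state cells (adjusted p = 1.6e-11) and gave 0.06 ± 0.07 in EPL against naive cells (adjusted p = 0.493).

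The 10 adaptors and kinases of the other LIF branches were divided, with 6 higher and 4 lower in EPL against naive cells, where 51.1% of all genes were called, and 3 higher and 7 lower in naive against ground-state cells, where 63.4% were called. In EpiSCs against EPL cells 5 were higher and 3 lower, where 70.2% were called.

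Of 20 further STAT3 targets and LIF-responsive genes, 12 were lower, 4 higher and 4 not called in EPL against naive cells (median -0.56, against 0.01 for all genes, of which 51.1% were called and 24.1% were lower; the list had 14 lower and 3 higher with RLE size factors). Klf4, a reprogramming factor, fell by 1.93 ± 0.07 (adjusted p = 1.78e-15), Spp1, which encodes osteopontin, by 1.47 ± 0.05, and Tfcp2l1, a factor of the naive network, by 1.22 ± 0.10. Pim2, the third Pim kinase, went the other way, rising by 2.60 ± 0.08 (adjusted p = 2.54e-16) to 321.3 ± 1.5 CPM in D3 EPL, against 41.4 ± 4.4 CPM in D3 naive cells, and to 153.5 ± 32 CPM in A2 EPL, against 32.5 ± 1.6 CPM in A2 naive cells. In naive against ground-state cells 11 of the 20 were higher and 5 lower (median 0.27). The higher ones included Myc (2.50 ± 0.07), Fos (1.76 ± 0.18) and Gbx2 (1.47 ± 0.10), transcription factors of growth and patterning. Tfcp2l1 went the other way, to 273.1 ± 65 CPM in D3 naive, against 1398 ± 50 CPM in D3 ground cells. In A2 it had 692.9 ± 82 CPM in naive, against 2266 ± 90 CPM in ground cells. EpiSCs against EPL cells had 9 higher and 10 lower. EPL against naive depended on the line for 7 of the 20, 6 of them with the more negative difference in D3, where 12.8% of all genes were called.

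Among 9 other genes of the NF-kappaB and IkappaB families, 3 were higher and 3 lower in EPL against naive cells. In naive against ground-state cells 1 was higher and 6 lower. Nfkb1, which encodes the p50 protein that Bcl3 binds, rose by 0.79 ± 0.04 in naive against ground-state cells (adjusted p = 2.37e-13) and fell by 0.96 ± 0.05 in EPL against naive cells (adjusted p = 8e-14). In EpiSCs against EPL cells Nfkb1 rose by 1.28 ± 0.06, with 7 of the 9 higher and 1 lower, while Bcl3 itself fell by 0.77 ± 0.08. Of 4 tested Ly6 neighbours of Ly6g6e, 2 were lower in EPL against naive cells and 1 was higher in naive against ground-state cells. Ly6g6d, which overlaps Ly6g6e, gave 0.22 ± 0.18 in naive against ground-state cells (adjusted p = 0.293), a comparison in which Ly6g6e fell by 1.28 ± 0.10.

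**Figure D5:**
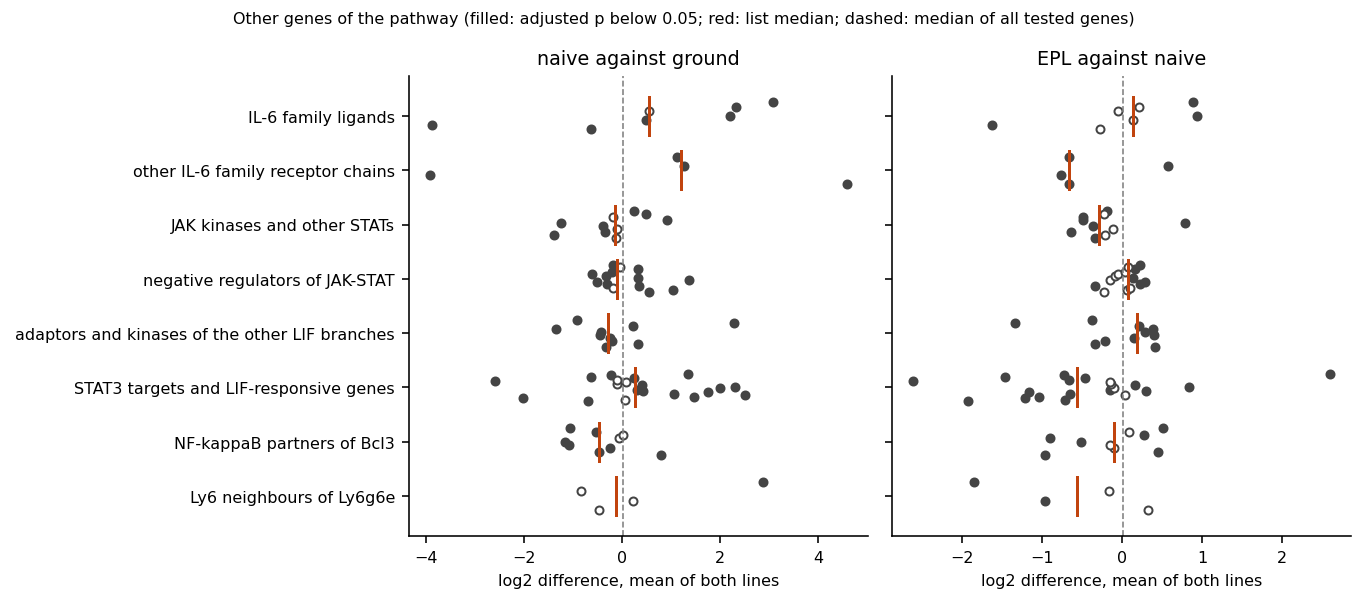
Log2 differences (mean of both lines) of other pathway genes, 1 point per tested gene, naive against ground on the left and EPL against naive on the right. Filled points had adjusted p below 0.05, red bars are list medians, and the dashed line is the median of all tested genes. The median of the STAT3 targets lies at 0.27 on the left and -0.56 on the right.

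Genes whose level most resembled that of a member over the 21 libraries were found by Pearson's r of log2 CPM among 10183 genes. For Socs3 they were Rbm39 (r = 0.95), Mrpl39 (0.948) and Fblim1 (0.94). For Bcl3 they were Cth (0.982), Lrrc34 (0.961) and Pigl (0.957), and for Ly6g6e Cnot11 (0.976), Orc1 (0.966) and Mcf2 (0.966). Cth, which encodes cystathionine gamma-lyase, averaged 48.5 CPM in D3 EPL and 80.0 CPM in A2 EPL cells. It was picked for its likeness to Bcl3 in these libraries, so sharing the order of lines with Bcl3 is no separate result. The libraries share stage, line and depth, so these values are a description.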

How the data were processed

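RNA from 21 samples (7 groups of 3) was made into libraries with the TruSeq RNA kit v2, which does not mark strand, per the labels' protocols. The authors deposited whole-number counts of reads per gene. HISAT2, SAMtools, featureCounts and the build GRCm38 are named in the submitters' processing notes; versions, counting annotation and strand option: not given in the sources used here. Gene positions come from GENCODE M21 on GRCm38, and all 9 genes matched.

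Counts were fitted in 1 model of 7 groups with edgeR 4.0.16 (R 4.3.3): filterByExpr (count minimum 10, total 15), TMM scaling and the robust quasi-likelihood test, with Benjamini-Hochberg adjustment over 16575 genes. The fit was tested on simulated data. Alternatives used DESeq2 1.42.0, limma-voom 3.58.1, other scalings and filters, each line alone, a replicate block and each library left out. No 2 libraries of a group agreed within sampling noise. Genes outside the 9 were named by rule: up to 6 per list and comparison, called, above 5 CPM and largest in size. Ly6g6d, the value of Socs2 in EPL cells and the ratios between members were chosen after their values were seen. The members and lists were chosen with earlier results of these data known. Some genes of the lists are not reported here by name.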

Additional observations from a re-analysis of the deposited data

Results flagged for a closer look

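A difference between stages differed between the lines, by a test of the difference itself, in 3 results. Bcl3 was lower by more in D3 than in A2 in EPL against naive cells, with a difference between the lines of -0.94 on the log2 scale (edgeR adjusted p = 1.31e-05). Ly6g6e gave 1.15 for the same comparison (edgeR adjusted p = 0.00104), its EPL and naive libraries overlapping in D3 and standing apart in A2. Ly6g6e gave -0.89 for naive against ground-state cells (edgeR adjusted p = 0.0103), its libraries standing apart in both lines. The 2 Ly6g6e results share the naive libraries. Without D3 naive replicate 2, which stood apart, the Bcl3 result was -0.86 and the Ly6g6e results were 1.29 and -1.03.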

How the results depend on the processing

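Of 57 called results of the 9 genes none changed sign under any alternative run, and 10 lost their call under at least 1 of them. The count of members called moved by over 1.5 times once, to 4 in naive against ground-state cells of A2 alone, against 7 with both lines. With each library left out in turn it was 9 in every case for EPL against naive, 5 to 7 for naive against ground, 8 for EPL against ground, 7 to 9 for EpiSC against EPL, 8 for EpiSC against naive, 8 to 9 for EpiSC against ground and 5 for D3 against A2, and 2 to 3 and 1 for the line dependence of EPL against naive and of naive against ground. Results that changed sign were near 0 and not called, and the cause was not tested. Bcl3 in naive against ground-state cells was 0.03 with RLE, 0.06 with total-count scaling, 0.01 without a filter, 0.0 with the stricter filter, 0.02 with the groups compared alone, 0.03 with DESeq2, 0.12 in D3 alone and -0.04 to 0.04 with a library left out. Pim1 in that comparison was 0.08 in A2 alone. The line dependence of Stat3 in EPL against naive was -0.02 with RLE, without a filter and with DESeq2, -0.01 with the groups alone and -0.08 to 0.05 with a library left out, and in naive against ground 0.01 with RLE, without a filter and with DESeq2 and -0.07 to 0.06 with a library left out. That of Lifr in EPL against naive was -0.27 to 0.01 with a library left out. Same-numbered replicates did not as a rule deviate together (r from -0.518 to 0.538, above 0.1 in 8 of 27 pairs), so the numbers were not taken to pair samples. Some libraries of unlike number did, with r = 0.725 for D3 naive replicate 2 and D3 EPL replicate 3. D3 naive replicate 1 and D3 EPL replicate 3 had r = -0.663. Whether libraries of different groups share a factor was not tested. A replicate block left 80 of 81 results as they were, and ended the call of Osmr in naive against ground-state cells (1.09, edgeR adjusted p = 0.053), as did limma-voom (1.15, adjusted p = 0.0625). A block shared by both lines, for D3 against A2, was added after seeing the data. With the groups compared alone Osmr failed the filter in the comparisons without EpiSCs, and 8 members were called in EPL against naive. Depth limits Osmr, at 0 to 9 counts outside EpiSCs.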
